A study of Mus musculus with 9 samples.

Results

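Skeletal muscle contractile genes were followed through the isolation of mouse mammary epithelial cells. The members are 10 genes of fast skeletal muscle fibres, Ckm, Myh4, Myh1, Myh2, Acta1, Mylpf, Tnnt3, Actn3, Pvalb and Atp2a1. They were chosen by name, with earlier results of these data known, and all 10 were measured among 19938 genes. Each had 1 row on the array that carried its symbol alone. The cells came from mammary glands of wild-type C3H females aged 8 to 9 weeks. Collagenase had freed the cells of all groups from the surrounding fat. The untrypsinized group stopped there, the trypsinized group went through trypsin as well, and the mock sorted group (labelled Trypsinized+Mock FACS sorted) went through trypsin and then a mock run on a fluorescence-activated cell sorter. With 3 arrays per group there were 9 in all. The labels call the 3 arrays of each group biological replicates but tie no array to an animal. Each p-value therefore reflects the spread between arrays, which may be partly technical.

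Striated muscle contracts when myosin heavy chains of the thick filament pull on actin thin filaments. Calcium released from the sarcoplasmic reticulum binds the troponin complex and uncovers actin, and a calcium pump then returns the calcium to the store. Fast fibres carry their own forms of many of these proteins, with creatine kinase to restore ATP and parvalbumin to buffer calcium. The mammary fat pads lie under the skin beside the body wall muscles and a thin cutaneous muscle. The contractile cells of the gland itself are myoepithelial cells, which use smooth muscle forms of actin and myosin.

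Values are log2 of the deposited intensity plus 1, and the median over all rows of an array was an intensity of 345 to 408. Log2 levels correlated across rows at 0.987 to 0.990 between arrays of a group and at 0.974 to 0.990 between arrays of different groups. Markers of the labelled cell type were high: Krt8, a keratin of luminal cells, lay at 13.87 to 13.93 and Krt14, a keratin of basal cells, at 12.75 to 12.81 in the group means. As a scale for dim rows, the 95th percentile of 1027 olfactory receptor genes was 8.05 in untrypsinized, 8.21 in trypsinized and 8.31 in mock sorted arrays. Above the percentile of the same group lay 8 members in untrypsinized, 7 in trypsinized and 4 in mock sorted arrays. On means over the 9 arrays the percentile was 8.20, and about 32% of all genes lay at or below that level. Most genes thus lay above it, so the first 2 counts do not set the members apart. The percentile itself rose between groups, which lowers the later counts. Rows differ in their probes, so this scale is approximate and levels are not compared between genes. A gene that approaches it has its fold change understated.

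Some members were lower after trypsin and some were not. After trypsin 7 of 10 were lower at an adjusted p of 0.05 or below, against 11.5% of all genes, and 3 of these, Ckm, Myh4 and Atp2a1, were also at least 1.5-fold lower, against 0.933% of all genes. A gene that meets both criteria is termed called. The members were chosen with earlier results of these data known, so their shares beside those of all genes are a description. For the same 7 genes every trypsinized array was below every untrypsinized array (19.4% of all genes), and for 0 members every one was above (25%). The median log2 change of the members was -0.43, beside 0.04 over all genes. None was called higher (background 0.532%), and 1, Myh2, was higher at an unadjusted limma p under 0.05. Setting the arrays to a common median over all rows moved the median of all genes to -0.09 and that of the members to -0.56, and 5 members were then called lower. In bulk RNA, fewer muscle cells and less RNA per cell cannot be told apart.

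In the sorter step 1 member was lower. Ckm was called lower in mock sorted than in trypsinized arrays, against 1.17% of all genes, and was the only member past an adjusted p of 0.05. The median change of the members was -0.12, beside 0.00 over all genes. None was called higher (background 0.0251%), and 0 were higher at an unadjusted limma p under 0.05. All mock sorted arrays were below all trypsinized arrays for 4 members, Ckm, Myh4, Myh1 and Actn3 (14.3% of all genes), and above them for 0 (9.74%).

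From untrypsinized to mock sorted cells, across both steps, Ckm, Myh4, Myh1, Pvalb and Atp2a1 were called lower, which is 5 of 10 against 3.4% of all genes. At any fold, 7 of 10 were lower at an adjusted p of 0.05 or below, against 18% of all genes, with a median of -0.61 beside 0.05. For those 7 the arrays did not overlap (23.4% of all genes), and for 0 members were all mock sorted arrays above (28.7%). None was called higher (background 1.08%), with 0 at an unadjusted limma p under 0.05.

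**Figure D1:**
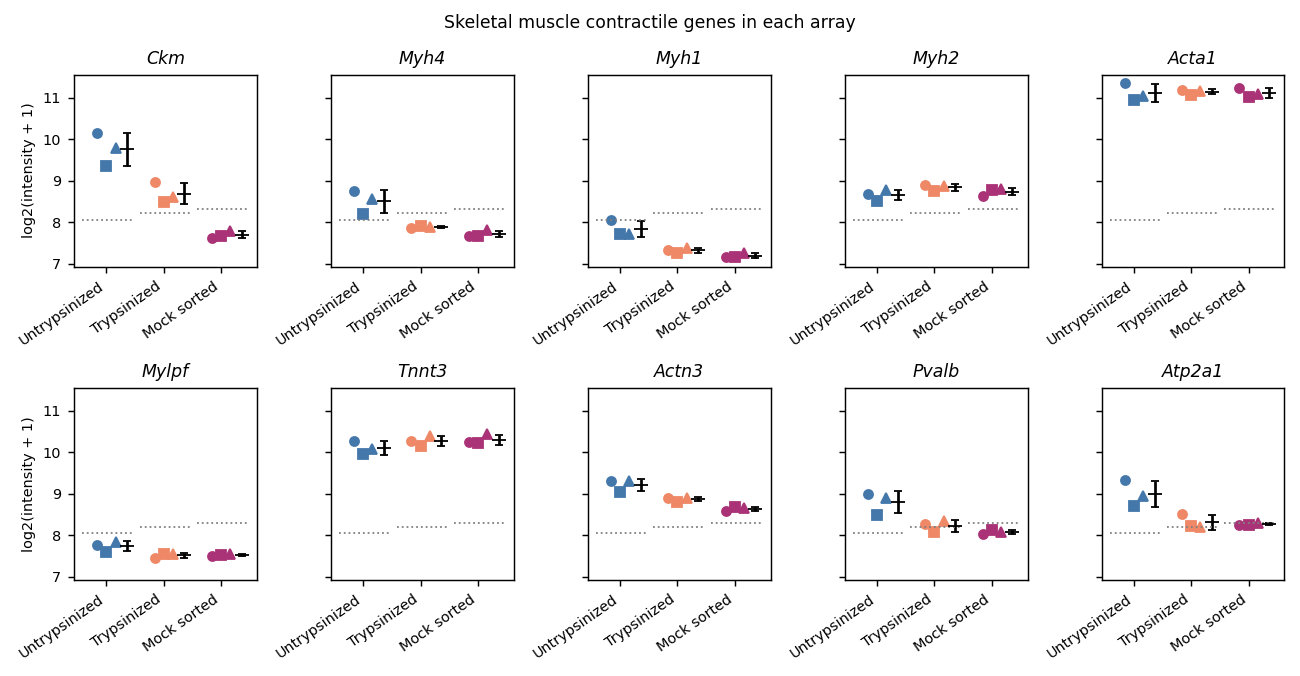
Log2(intensity + 1) of the 10 genes in each of 9 arrays, by group. Circles, squares and triangles are replicates 1, 2 and 3, black bars are the mean ± SD (n = 3), and dotted lines mark the 95th percentile of olfactory receptor genes in each group. Ckm steps down at both steps to a mean of 7.69, while Acta1 stays between 10.93 and 11.35.

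Ckm, the muscle creatine kinase that regenerates ATP from phosphocreatine, had the largest decline of the members. Its log2 levels were 10.14, 9.35 and 9.78 in untrypsinized arrays 1 to 3, 8.97, 8.48 and 8.61 in trypsinized arrays, and 7.62, 7.68 and 7.78 in mock sorted arrays. No array of one group overlapped another group, and the mock sorted level of 7.69 ± 0.08 (SD, n = 3) lay below the olfactory 95th percentile. On the intensity scale these were 652 to 1130, 356 to 499 and 195 to 219. Ckm fell by 1.07 after trypsin (SE 0.19, limma adjusted p = 0.00675), or 2.10-fold. It fell by 0.99 more in the sorter step (SE 0.19, adjusted p = 0.0240), or 1.99-fold. Over both steps it fell by 2.07 (SE 0.19, adjusted p = 0.000119), or 4.19-fold. The sorter-step call was lost without any 1 of 5 arrays, trypsinized replicate 1 or 3 or any mock sorted replicate (adjusted p = 0.0683 to 0.0865), at changes of -0.85 to -1.04. It was also lost when p was adjusted over every row (adjusted p = 0.0584).

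Of the 3 fast myosin heavy chains, Myh4 and Myh1 fell after trypsin and Myh2 was not shown to change. These motor proteins of the thick filament are encoded by neighbouring genes on chromosome 11, in the order Myh2, Myh1, Myh4. Their promoters are shown because these neighbours share sequence and have unlike values in the data. Each line gives the 250 bases upstream of the RefSeq start on the plus strand of GRCm38.p6, a build used for the sequences only, since the files name none. Capitals mark the longest run that all 3 share.
Myh2, chr11:67170777-67171026: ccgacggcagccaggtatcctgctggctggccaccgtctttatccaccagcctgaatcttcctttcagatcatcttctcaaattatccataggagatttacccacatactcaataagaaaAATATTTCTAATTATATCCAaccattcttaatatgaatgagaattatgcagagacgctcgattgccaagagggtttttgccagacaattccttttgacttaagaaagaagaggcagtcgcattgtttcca
Myh1, chr11:67199852-67200101: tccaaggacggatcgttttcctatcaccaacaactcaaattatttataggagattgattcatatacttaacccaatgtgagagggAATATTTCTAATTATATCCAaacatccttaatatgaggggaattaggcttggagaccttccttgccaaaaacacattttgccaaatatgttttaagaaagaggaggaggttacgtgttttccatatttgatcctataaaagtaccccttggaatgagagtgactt
Myh4, chr11:67237562-67237811: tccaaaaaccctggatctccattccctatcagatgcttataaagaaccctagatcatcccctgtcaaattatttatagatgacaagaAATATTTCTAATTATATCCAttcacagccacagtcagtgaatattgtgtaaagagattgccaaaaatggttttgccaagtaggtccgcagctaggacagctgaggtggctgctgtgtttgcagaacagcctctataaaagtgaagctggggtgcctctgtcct

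The shared run of 20 bases begins 130 bases upstream of the start in Myh2, 165 in Myh1 and 163 in Myh4. It occurred, on either strand, in 3 of 32536 distinct windows of the same length over all genes, and these 3 were the Myh genes. Of the 10 members, 8 had promoter windows in the RefSeq table, 9 windows in all since Pvalb had 2, and Tnnt3 and Actn3 had none. On both strands, an E-box, the CANNTG motif bound by myogenic factors among many others, was present in 6 members, and in 66.2% of all windows. A MEF2 motif was present in 3 members, Myh1, Myh4 and Pvalb, and in 2.89% of all windows. A CArG box, the motif of serum response factor, was present in 2, Acta1 and Myh4, and in 1.48% of all windows. No matches of these 3 motifs overlapped each other in these windows. TATAAA was also searched, and was present in Acta1, Myh1 and Myh4 and in 12.3% of all windows. In Myh1 and Myh4 one TATAAA match overlapped the MEF2 match. These matches describe the sequence and are not shown to be binding sites.

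Myh4, the heavy chain of the fastest fibres, had levels of 8.75, 8.20 and 8.55 in untrypsinized, 7.85, 7.90 and 7.88 in trypsinized, and 7.68, 7.67 and 7.81 in mock sorted arrays. All trypsinized arrays were below all untrypsinized arrays and above all mock sorted arrays. Myh4 fell by 0.62 after trypsin (SE 0.12, adjusted p = 0.00846), with a sorter-step change of -0.16 (SE 0.12, adjusted p = 0.567). Without untrypsinized replicate 1, its change after trypsin was -0.50 (adjusted p = 0.0175), under the minimum fold, and it was -0.53 with array weights. Over both steps it fell by 0.78 (SE 0.12, adjusted p = 0.00150).

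Myh1, the heavy chain of another fast fibre class, lay at 8.06, 7.73 and 7.72 in untrypsinized, 7.32, 7.26 and 7.38 in trypsinized, and 7.16, 7.17 and 7.26 in mock sorted arrays. The groups did not overlap, and all 3 means lay below the olfactory 95th percentile of their group. Myh1 fell by 0.51 after trypsin (SE 0.09, adjusted p = 0.00596), which is under 1.5-fold, and by 0.64 over both steps (SE 0.09, adjusted p = 0.000941), which is called. The second call rested on untrypsinized replicate 1, without which the change was -0.53, and was lost with array weights at -0.58.

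Myh2, the heavy chain of oxidative fast fibres, was in no comparison past an adjusted p of 0.05. Its levels were 8.67, 8.52 and 8.77 in untrypsinized, 8.90, 8.74 and 8.88 in trypsinized, and 8.63, 8.78 and 8.80 in mock sorted arrays, and the groups overlapped. Its change after trypsin was 0.19 (95% interval 0.01 to 0.36, adjusted p = 0.112), and over both steps it was 0.09 (95% interval -0.09 to 0.26). The heavy chain genes are closely similar in coding sequence, and how far the probes of one also bind another was not tested.

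Mylpf, the fast regulatory light chain that sits on the myosin neck, was dim throughout. It lay at 7.76, 7.61 and 7.84 in untrypsinized, 7.45, 7.54 and 7.56 in trypsinized, and 7.51, 7.54 and 7.55 in mock sorted arrays. All untrypsinized arrays were highest, while the trypsinized and mock sorted arrays overlapped. Mylpf fell by 0.22 after trypsin (SE 0.06, adjusted p = 0.0340), under 1.5-fold, and its sorter-step change was 0.02 (SE 0.06).

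Among genes of the thin filament, neither Acta1 nor Tnnt3 was shown to change. Acta1, the skeletal muscle actin, lay at 11.35, 10.93 and 11.03 in untrypsinized, 11.20, 11.08 and 11.16 in trypsinized, and 11.24, 11.02 and 11.08 in mock sorted arrays, with all groups overlapping. The change over both steps was 0.01 (95% interval -0.23 to 0.25), and a common median for the arrays put it at -0.14. Actin genes are near-identical in coding sequence, and how far this row also reads Acta2, the smooth muscle actin of myoepithelial cells, was not tested. The group means of Acta2 were 13.81, 13.76 and 13.72. Tnnt3, the fast troponin T that anchors the troponin complex to tropomyosin, lay at 10.28, 9.96 and 10.07, then 10.28, 10.16 and 10.39, then 10.24, 10.23 and 10.45 in untrypsinized, trypsinized and mock sorted arrays. Its groups overlapped, with a change over both steps of 0.20 (95% interval -0.03 to 0.43, adjusted p = 0.137). For both genes the 95% interval left out a 1.5-fold fall in each of the 3 comparisons.

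Actn3, the alpha-actinin that crosslinks actin at the Z disc of fast fibres, was lower after trypsin and lower again over both steps. Levels were 9.30, 9.05 and 9.31 in untrypsinized, 8.91, 8.81 and 8.91 in trypsinized, and 8.58, 8.68 and 8.67 in mock sorted arrays, with no overlap between groups. It fell by 0.35 after trypsin (SE 0.07, adjusted p = 0.0123), had a sorter-step change of -0.23 (SE 0.07, adjusted p = 0.134), and fell by 0.58 over both steps (SE 0.07, adjusted p = 0.000586). The total lay just under the minimum fold, at 1.495-fold, and was called with quantile normalization (-0.68), with a common median (-0.73), and without untrypsinized replicate 2 (-0.67), mock sorted replicate 2 (-0.60) or mock sorted replicate 3 (-0.59).

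The 2 calcium-handling members fell after trypsin and did not pass the test in the sorter step. Atp2a1, the fast-fibre calcium pump SERCA1, lay at 9.34, 8.71 and 8.96 in untrypsinized, 8.52, 8.22 and 8.21 in trypsinized, and 8.25, 8.26 and 8.30 in mock sorted arrays. All untrypsinized arrays were highest, and the later groups overlapped. Atp2a1 fell by 0.69 after trypsin (SE 0.15, adjusted p = 0.0137). This call was lost without untrypsinized replicate 1 (-0.52, under the minimum fold) and without trypsinized replicate 3 (adjusted p = 0.0509). In the sorter step its change was -0.04 (95% interval -0.39 to 0.30).

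Pvalb, parvalbumin, lay at 9.00, 8.50 and 8.90 in untrypsinized, 8.28, 8.07 and 8.35 in trypsinized, and 8.04, 8.14 and 8.08 in mock sorted arrays. Again the untrypsinized arrays were all highest and the later groups overlapped. Pvalb fell by 0.56 after trypsin (SE 0.13, adjusted p = 0.0148), just under 1.5-fold. Its sorter-step change was -0.15 (95% interval -0.43 to 0.14), and over both steps it fell by 0.71 over both steps (SE 0.13, adjusted p = 0.00321), which is called. Without untrypsinized replicate 2 its change after trypsin was -0.71, without trypsinized replicate 1 it was -0.59 and without trypsinized replicate 3 it was -0.62, each of which is called.

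**Figure D2:**
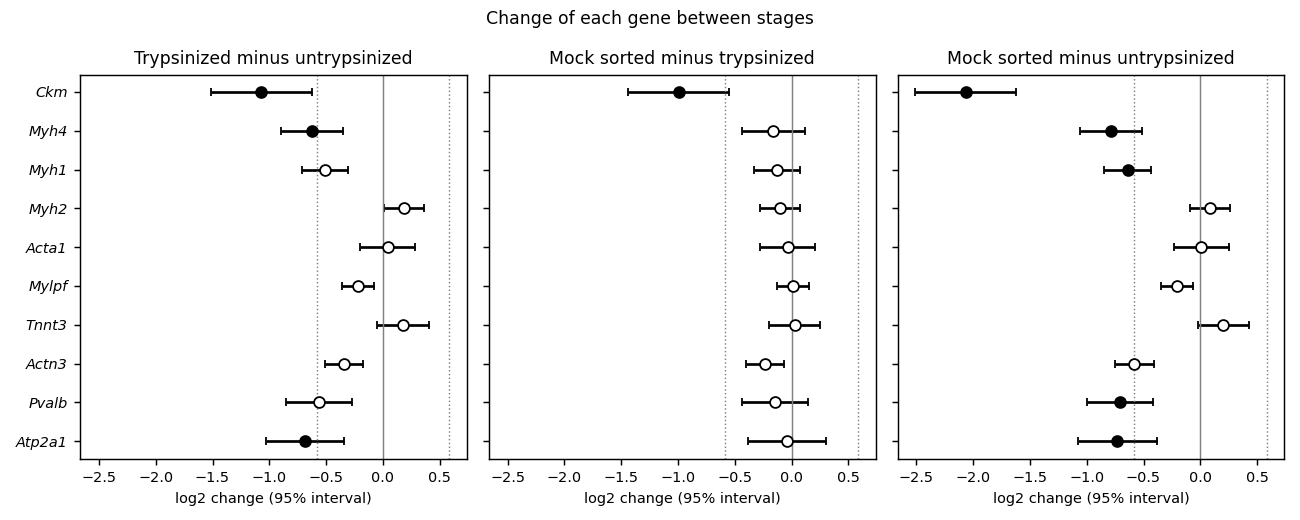
Log2 change of each of the 10 genes in 3 comparisons, with 95% intervals from limma. Filled points were called, and dotted lines mark 1.5-fold. In the middle panel 1 gene, Ckm, is filled, at -0.99.

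The steps were compared directly, because a call in one step and none in the other does not show that they differ. For 7 members the sorter-step change lay above the trypsin-step change, by 0.64 in Atp2a1 (SE 0.26, adjusted p = 0.275), 0.46 in Myh4 and 0.42 in Pvalb. For Ckm the difference was 0.08 (95% interval -0.69 to 0.85). None of the 10 passed an adjusted p of 0.05 in limma, and 2 had an unadjusted p under 0.05, Myh1 and Atp2a1. Over all genes 0.01% passed with the sorter-step change above the trypsin-step change and 0.115% with it below. Both changes use the same trypsinized arrays, so they are not independent.

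Untrypsinized arrays differed among themselves in these genes. Replicate 1 was the highest untrypsinized array for 7 of 10 members and replicate 3 for the other 3. Replicate 2 was lowest for 9 of 10. With each gene centred on its mean over the 9 arrays, the members averaged 0.49 in untrypsinized replicate 1, 0.08 in replicate 2 and 0.32 in replicate 3. In trypsinized arrays the averages were 0.00, -0.14 and -0.04, and in mock sorted arrays -0.28, -0.25 and -0.19. Markers of vessels had another order: for all 6 endothelial genes replicate 3 was the highest untrypsinized array and replicate 1 the lowest, with averages of 0.62, 0.74 and 0.85. The 6 pericyte genes averaged 0.46, 0.51 and 0.65. The order varied between other muscle lists. The 33 further muscle genes averaged 0.09, 0.03 and 0.12 in untrypsinized replicates 1 to 3, 7 slow-fibre genes -0.07, 0.03 and 0.11, and 4 embryonic genes 0.16, 0.05 and 0.25, each highest in replicate 3. Within the 33, the 8 Z-disc genes averaged 0.22, 0.01 and 0.15, in the order of the members, and the 7 energy-supply genes 0.12, 0.06 and 0.11. The 9 smooth muscle and myoepithelial genes averaged 0.15, 0.12 and 0.14, with replicate 1 the highest untrypsinized array for 5 of 9. These averages are nearly level, so they do not show whether the order of the members is particular to skeletal muscle genes. The source of these orders was not tested.

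**Figure D3:**
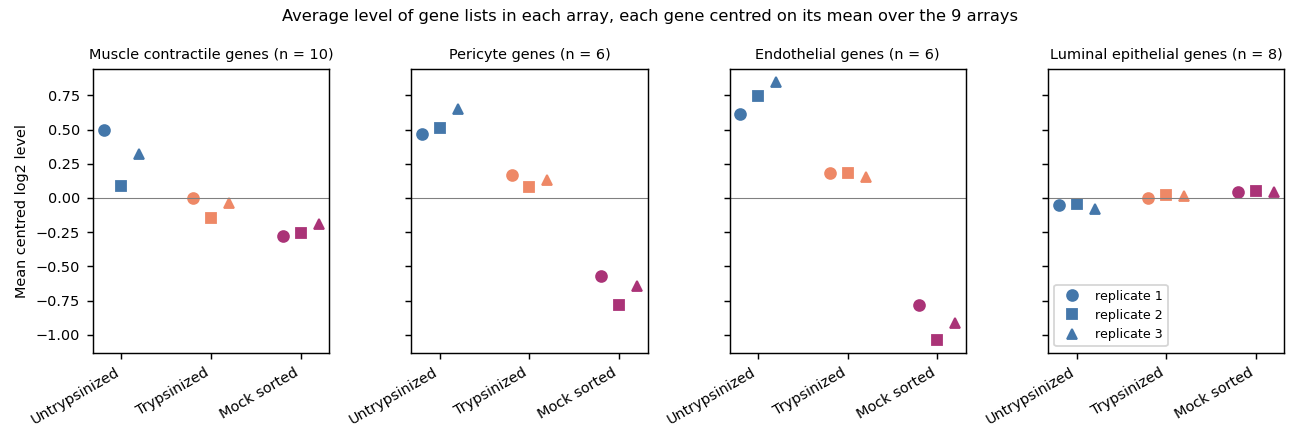
Mean centred log2 level of the 10 muscle genes and of 3 marker lists in each array. Circles, squares and triangles are replicates 1, 2 and 3. The 10 muscle genes are highest in untrypsinized replicate 1, at 0.49, while endothelial genes are highest in replicate 3, at 0.85.

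Few other skeletal muscle genes were called. Of 33 further genes of fast fibres and general muscle function, 1 was called lower after trypsin, 1 in the sorter step and 2 over both steps. The background shares called lower were 0.933%, 1.17% and 3.4%. None was called higher (background 0.532%, 0.0251% and 1.08%). Without the minimum fold, 8 were lower and 4 higher after trypsin, 2 lower and 0 higher in the sorter step, and 9 lower and 4 higher over both, with 1 higher in the sorter step at an unadjusted limma p under 0.05. At any fold, the background shares lower were 11.5% after trypsin, 4.2% in the sorter step and 18% over both. The shares higher were 13.9%, 0.466% and 21%. The median change of the list over both steps was -0.02, beside 0.05 for all genes. Above the olfactory 95th percentile of the same group lay 21 of 33 in untrypsinized, 16 in trypsinized and 13 in mock sorted arrays. Most of all genes lay above this percentile on means over the 9 arrays, so these counts do not set the list apart as well detected.

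Myl1, the fast essential light chain, was called lower at both steps, as Ckm was. Its levels were 10.25, 9.66 and 9.97 in untrypsinized, 9.06, 8.91 and 8.97 in trypsinized, and 8.03, 7.97 and 7.77 in mock sorted arrays, with no overlap. Untrypsinized replicate 1 was highest and replicate 2 lowest, as in Ckm. Myl1 fell by 0.98 after trypsin (SE 0.14, adjusted p = 0.00256) and by 1.06 in the sorter step (SE 0.14, adjusted p = 0.00309). Over both steps it fell by 2.04 (SE 0.14, adjusted p = 1.77e-05), or 4.11-fold.

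Pygm, the muscle glycogen phosphorylase, was the other gene called over both steps. It fell by 0.47 after trypsin (SE 0.05, adjusted p = 0.000595), by 0.21 in the sorter step (SE 0.05, adjusted p = 0.0383), and by 0.68 in total, from 9.51 ± 0.07 to 8.82 ± 0.03 (SD, n = 3). Genes of the remaining role groups had no calls. Tnni2, the fast troponin I, lay at 9.52 ± 0.13, 9.60 ± 0.06 and 9.52 ± 0.07 in the 3 groups. Ttn, the giant spring protein titin, lay at 8.81 ± 0.08, 8.93 ± 0.03 and 8.95 ± 0.01, and Jsrp1, a protein of the calcium release junction, at 9.36 ± 0.17, 9.47 ± 0.04 and 9.56 ± 0.11. Named after their values were seen, Myot, a Z-disc protein, fell by 0.55 after trypsin (SE 0.09, adjusted p = 0.00474), and Casq1, the calcium store protein of fast fibres, fell by 0.49 (SE 0.11, adjusted p = 0.0139), both under 1.5-fold. Of the 9 calcium-handling genes among the 33, Casq1 was the 1 lower at an adjusted p of 0.05, with 2 higher and a median of 0.18. The 4 of the 33 that were higher after trypsin, also named after their values were seen, were under 1.5-fold too. They were Cacng1 at 0.28 (limma adjusted p = 0.00925), Cox6a2 at 0.25 (0.0254), Trdn at 0.22 (0.0475) and Tmod4 at 0.21 (0.0258). Trdn had 19 rows, which differed widely in level, and the brightest row stands for it.

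**Figure D4:**
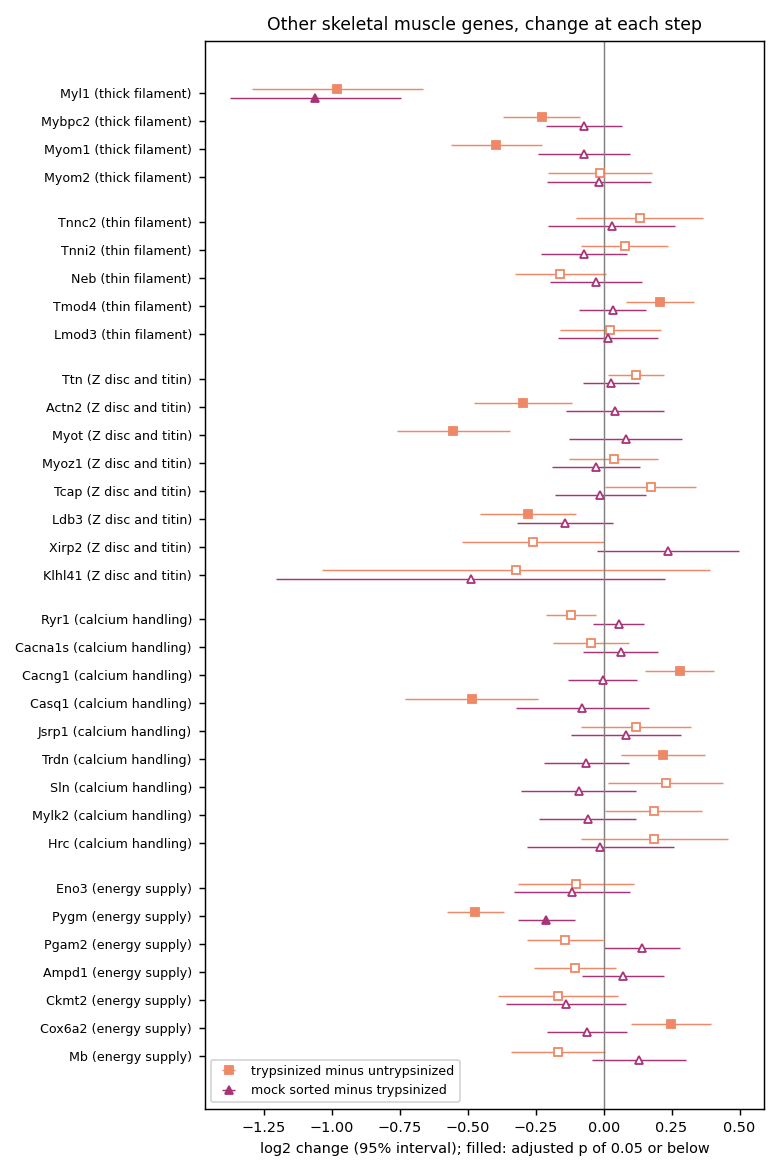
Log2 change of 33 other skeletal muscle genes at each step, with 95% intervals from limma, grouped by role. Squares are the trypsin step, triangles the sorter step, and filled symbols have an adjusted p of 0.05 or below. Myl1 lies near -1 at both steps, at -0.98 and -1.06.

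Genes of slow fibres, early muscle and muscle stem cells were read beside them. Of 7 slow-fibre genes 1 was called, Casq2, the calcium store protein of slow and cardiac muscle. Casq2 fell by 0.61 after trypsin (SE 0.07, adjusted p = 0.00114) and by 0.75 in the sorter step (SE 0.07, adjusted p = 0.000520). The slow-fibre list as a whole did not follow Casq2, with a median change of 0.18 over both steps. At any fold 1 of its genes was lower and 1 higher over both steps, against 18% and 21% of all genes. The higher one, named after its value was seen, was Tnni1 at 0.29 (limma adjusted p = 0.00226). Of 4 embryonic genes, Myl4, the atrial and embryonic light chain, was called lower over both steps, by a change of -0.69 (SE 0.10, adjusted p = 0.00113). The 6 satellite cell and myogenic factor genes had no call and 0 lower at an adjusted p of 0.05, with 2 higher after trypsin. After trypsin 11.5% of all genes were lower and 13.9% higher at that threshold. Myf6, a myogenic factor, lay at 8.53 ± 0.18, 9.09 ± 0.22 and 8.70 ± 0.25. Of 4 neuromuscular junction genes none was called, and Chrnb1, an acetylcholine receptor subunit, lay at 10.94 ± 0.05, 11.22 ± 0.02 and 11.29 ± 0.02. Musk, of the same list and named after its value was seen, went the other way. Its change over both steps was -0.32 (limma adjusted p = 0.00233).

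Marker lists of other cell types of the gland also had genes called lower over the same steps. In the sorter step all 6 endothelial genes were called, and in the pericyte, Schwann cell and white adipocyte lists only some. Over all genes 0.933% were called lower after trypsin and 1.17% in the sorter step. Of 6 endothelial genes 3 were called lower after trypsin and 6 in the sorter step. Of 6 pericyte genes, 1 and 4 were called, of 5 measured Schwann cell genes 3 and 3, and of 9 measured white adipocyte genes 2 and 2. Tek, a receptor of vessel cells, fell by 0.79 after trypsin and fell by 1.29 in the sorter step (adjusted p = 0.000595 and 0.000118). Cldn5, a tight junction protein, fell by 0.57 and then fell by 1.32, and Kdr, a growth factor receptor, fell by 0.62 and then fell by 1.08. Kcnj8, a potassium channel subunit of pericytes, fell by 0.61 and then fell by 1.02 (adjusted p = 0.00147 and 0.000223), with Abcc9 and Des, which skeletal muscle also expresses, among those called in the sorter step. Of Schwann cell genes Cdh19, an adhesion protein, fell by 1.73 and then fell by 1.18 (adjusted p = 0.000115 and 0.000159), beside Mbp and Gjc3. Of adipocyte genes Car3, a carbonic anhydrase that slow muscle also makes, fell by 0.75 and then fell by 1.44 (adjusted p = 0.00855 and 0.000737), beside Aqp7, with Retn called over both steps. The other 6 measured adipocyte genes had no call, and the list had a median change over both steps of 0.02, with Adipoq, the adipocyte hormone adiponectin, at 0.02, Plin1, a lipid droplet protein, at 0.08 and Pck1 higher, at 0.30 (adjusted p = 0.0456). These 3 were named after their values were seen. Adipoq was dim, with group means of 7.79, 7.74 and 7.81, below the olfactory percentile of each group (8.05, 8.21 and 8.31). Fold changes of rows this dim are understated, so its 0.02 does not show a steady level. Plin1, at 9.15, 9.22 and 9.22, lay above that percentile, and Pck1, at 8.29, 8.44 and 8.60, lay a little above it.

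Without the minimum fold, the numbers of genes lower after trypsin and in the sorter step were 5 and 6 for endothelial genes, 5 and 5 for pericytes, 4 and 3 for Schwann cells, and 3 and 2 for adipocytes. The shares of all genes lower in these 2 steps were 11.5% and 4.2%. In the Schwann cell list 1 gene was higher after trypsin, Sox10, a transcription factor of the lineage, at 0.25 (adjusted p = 0.0129), and it was named after its value was seen. Of 9 smooth muscle and myoepithelial genes, 4 were lower in each step and 7 over both steps without the minimum fold, against 18% of all genes over both steps, with a median change of -0.31. None of these was called in either step and 1 was called over both, Mylk, the myosin light chain kinase, with a change of -0.77 (SE 0.05, adjusted p = 1.11e-05). Brown adipocyte genes, which share some mitochondrial forms with muscle, had 0 of 5 lower and 3 higher at an adjusted p of 0.05 after trypsin. The background shares were 11.5% lower and 13.9% higher. The 3, named after their values were seen, were Ucp1 (7.26 to 7.47), Elovl3 (7.08 to 7.27) and Cidea (8.25 to 8.59). Ucp1 and Elovl3 lay below the olfactory percentile, which itself rose from 8.05 to 8.21. Whether their rise differs from a drift of dim rows was not tested. Cox7a1, the muscle and heart form of a cytochrome oxidase subunit, lay at 9.07 ± 0.06, 9.08 ± 0.04 and 9.09 ± 0.06. Luminal epithelial genes had 0 of 8 called in any comparison, where at most 3.4% of all genes were called in a direction. Without the minimum fold, 2 were higher after trypsin, against 13.9% of all genes. Over both steps 3 were higher and 1 was lower, against 21% and 18%. The part of these and the other lists in the muscle result was not tested.

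By root-mean-square distance of centred profiles over the 9 arrays, the genes outside all lists most like the average of the 10 members were Pla1a, a phospholipase, at 0.03, Sema3b, a secreted semaphorin, at 0.07, and Col5a2, a fibrillar collagen, at 0.07. The next 7 were B3gnt9, Cnp, Cntn1, Mpdz, Lrrn3, Lrrc17 and Ptgis, at 0.07 to 0.08. Among the members themselves this distance ran from 0.06 in Actn3 to 0.64 in Ckm. Pla1a changed over both steps by -0.54 (adjusted p = 0.00143), and Sema3b by -0.64 (adjusted p = 0.000140). These genes were ranked by likeness to the values described here, so their changes are a description.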

How the data were processed

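RNA of mammary cell preparations was labelled with biotin for Affymetrix whole-transcript arrays, per the labels' protocols. The authors deposited linear intensities, 1 for each of 35512 rows on each array. The authors' background correction, probe summary and scaling were not given in the sources used here, and the submitters' processing notes name limma. Rows were named through the platform annotation table, which can be old. It gave 1 symbol to 21789 rows, several to 1621 and none to 12102, and the RefSeq table of GRCm38.p6 renewed 21698 of them through the gene number. The highest-mean row stood for each of 19938 genes.

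One limma model (limma 3.58.1, R 4.3.3) took group means from log2(intensity + 1) of all genes on 9 arrays, with 2-sided moderated tests and Benjamini-Hochberg adjustment over all genes. Calls needed an adjusted p of 0.05 or below and 1.5-fold, the numbers in the submitters' design text, which does not say whether p was adjusted. The number of arrays limits the precision.

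The members and lists were chosen with earlier results of these data known. Named genes are the 10 members and, per list, the called genes with the largest change, at most 4 for muscle role lists and 3 for others, or the highest-level gene where none was called, and the 10 nearest profiles. Replicate numbers were taken to pair trypsinized with mock sorted arrays, whose deviations from the group mean correlated at 0.53, 0.29 and 0.29 for equal numbers. For unequal numbers of these 2 groups the correlations ran from -0.36 to 0.16. For equal numbers, untrypsinized and trypsinized arrays correlated at 0.11, 0.04 and -0.04, and untrypsinized and mock sorted arrays at 0.32, 0.18 and 0.06. The pairing comes from the values. Alternatives covered threshold, scaling, filter, row choice, variance model, array weights, arrays fitted, replicate block, pseudocount and leaving out each array.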

Additional observations from a re-analysis of the deposited data

How the results depend on the processing

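The numbers of members and of the 33 further muscle genes called moved with the threshold, scaling and filter. Counts of members called lower after trypsin were 3 as reported, 7 with no minimum fold, 5 with quantile normalization and 5 with a common median. With only genes above the median level tested, 0 members and 0 further muscle genes were called lower in each comparison, since that filter removed 8 members, among them every called one. In the sorter step the 1 member called lower became 0 when p was adjusted over every row. Further muscle genes called lower after trypsin were 1 as reported, 8 with no minimum fold, 3 with quantile normalization and 4 with a common median. In the sorter step they were 1 and, with no minimum fold, 2. Over both steps they were 2 as reported, 9 with no minimum fold, 6 with quantile normalization and 6 with a common median. Those called higher were 4 after trypsin and 4 over both steps with no minimum fold. Leaving out each array in turn gave 1 to 4 members called lower after trypsin, 0 to 1 in the sorter step and 3 to 6 over both. It gave 1 to 2, 1 to 1 and 2 to 4 further muscle genes. Without untrypsinized replicate 1 the members called were 1 after trypsin and 3 over both steps. Further muscle genes called lower were 2 after trypsin without untrypsinized replicate 2, trypsinized replicate 1 or trypsinized replicate 2, and 4 over both steps without untrypsinized replicate 2. The count of members whose steps differ was 0 under each alternative. The unadjusted threshold, the mean of all rows of a gene, the variance trend, array weights, the pseudocount of 16 and fitting 2 groups alone kept each count of called members and further genes within 1.5 times. The replicate block changed no call of a member: the sorter-step change of Ckm was -0.99 in the block on 9 arrays and also in a block on the 6 paired arrays (adjusted p = 0.0371), the latter chosen after seeing the data.

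Signs turned for some changes that did not pass the test. With a common median, Acta1 was at -0.0937 after trypsin and -0.14 over both steps and Myh2 at -0.0644 over both. With quantile normalization Mylpf was at -0.0395 in the sorter step and Myh2 at -0.0426 over both steps. Leaving out single arrays, Acta1 ranged from -0.0454 to 0.16 after trypsin, from -0.0955 to 0.0154 in the sorter step and from -0.0782 to 0.13 over both, and in the sorter step Mylpf ranged from -0.0178 to 0.0379, Tnnt3 from -0.0456 to 0.0829 and Atp2a1 from -0.0989 to 0.0583. Over all genes, calls after trypsin were 186 lower and 106 higher as reported, 279 and 57 with quantile normalization, and 376 and 55 with a common median. The cause of these shifts was not tested.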
